A study of Mus musculus with 9 samples.

Results

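The genes described here are 35 genes of DNA replication and S phase, the stage of the cell cycle in which the genome is copied. They were followed in mouse embryonic orofacial tissue, from which the face and palate form, on gestation days (GD) 12, 13 and 14. Total RNA was hybridized to 9 one-colour oligonucleotide arrays, 3 for each day, and the arrays of a day carry the numbers 1 to 3. The labels give no strain, no treatment and no number of embryos or litters per sample, so p-values measure only the spread between these samples, which may be technical. Each member was represented by its probe set, a group of probes to one transcript, with the highest mean intensity among probe sets annotated with that gene alone. This gave 33 of the 35 members, out of 8251 genes represented in the same way. Pole, a polymerase subunit, and Tyms, thymidylate synthase, had no such probe set. Of the 33, 32 passed the filter on dim probe sets, set at an intensity of 10.4, and were tested. The exception was Mcm6.

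Before S phase, the origin recognition complex and Cdc6 load the ring of Mcm2 to Mcm7 onto DNA, a step called licensing. In S phase, Cdc45 joins this ring to form the working helicase, polymerase alpha with primase starts each strand, and polymerases delta and epsilon extend them on the sliding clamp Pcna. Ribonucleotide reductase and thymidine kinase supply the nucleotides, and many of these genes are transcribed under E2F factors as cells leave G1. Growing facial processes and palatal shelves contain many dividing cells, and cells that leave the cycle to differentiate lower these transcripts. In bulk tissue, fewer dividing cells and less RNA per cell cannot be told apart.

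Expression of the replication genes was lower on GD14 than on GD12 by a small amount in most members, and 1 of the 32 tested members passed the test. Rrm2, the small subunit of ribonucleotide reductase, fell 1.69-fold. Mcm7, Mcm2, Fen1, Top2a and Rrm1 had log2 differences of -0.65 to -0.58 and did not pass. The S-phase entry regulators E2f1, Ccne1 and Ccne2 were not lower on GD14 (0.17, 0.10 and 0.05). The median log2 difference, GD14 minus GD12, of the 33 members was -0.22, beside -0.02 for all 9316 tested probe sets. It was below 0 in 25 of the 32 tested members (78.1%, beside 52.5% of all tested probe sets). The 3 GD14 values lay wholly below the 3 GD12 values in 10 members (31.2%, beside 10.3%) and wholly above in 0 (beside 12.1%).

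Array values were summed over the 33 members as a description of the whole list. The sums were 9115, 8997 and 10362 on the GD12 arrays, 8632, 8947 and 8592 on the GD13 arrays, and 7713, 8076 and 7645 on the GD14 arrays. The days did not overlap in this sum, and GD12 array 3 stood above the other 2 arrays of its day. Bright probe sets dominate such a sum. The median log2 position of the members relative to their own GD12 means weights them equally and was -0.07, -0.05 and 0.05 on the GD12 arrays, -0.08, -0.02 and -0.08 on the GD13 arrays, and -0.42, -0.13 and -0.23 on the GD14 arrays. On this scale the GD14 arrays were the lowest, with no overlap, while GD13 overlapped GD12.

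**Figure D1:**
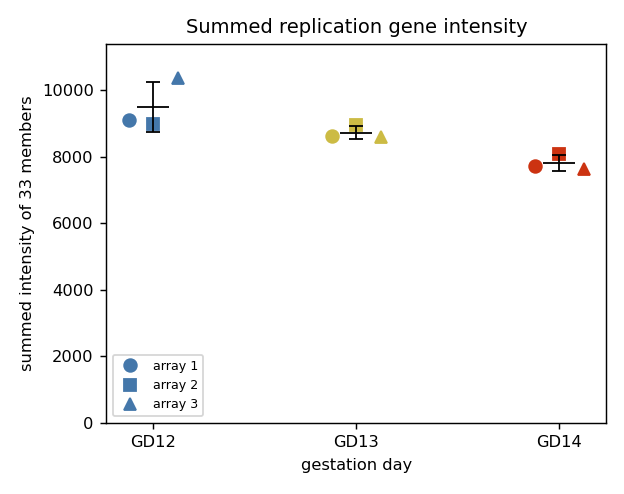
Summed intensity (linear, vertical axis) of the 33 replication genes on each array, by gestation day; points are arrays, horizontal marks and bars are the mean and SD of 3 arrays. The GD14 arrays lie between 7645 and 8076, below the GD13 arrays at 8592 to 8947 and the GD12 arrays at 8997 to 10362.

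Nucleotide supply held the single call. Rrm2 had intensities of 496, 488 and 632 on the GD12 arrays, 406, 391 and 406 on the GD13 arrays and 326, 277 and 349 on the GD14 arrays. All GD14 values lay below all GD13 values, which lay below all GD12 values. The mean was 317 ± 36.4 on GD14 and 539 ± 80.6 on GD12 (SD, n = 3 each), a log2 difference of -0.75 (SE 0.16, limma adjusted p = 0.0354). Across the array, 1.06% of tested probe sets fell and 3.24% rose in this comparison, so 1 fall among 32 members, 3.12%, is a small count. With the replicate number as a block in the fit, 2 members fell, Rrm2 (adjusted p = 0.0235) and Top2a (0.0482), where 2.08% of all tested probe sets fell in the same fit. The Rrm2 call depended on the full set of arrays: adjusted p was 0.0824, 0.0650 and 0.101 without GD12 array 1, 2 or 3, 0.0702, 0.0656 and 0.0545 without GD13 array 1, 2 or 3, 0.104 and 0.118 without GD14 array 1 or 2, and 0.0436 without GD14 array 3.

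Rrm1 encodes the large, catalytic subunit of the same enzyme. Its intensities were 509, 545 and 700.3 on the GD12 arrays, 429, 344 and 470.2 on the GD13 arrays and 379, 285 and 495 on the GD14 arrays. Every GD14 and GD13 value lay below every GD12 value, and GD14 and GD13 overlapped. The log2 difference, GD14 minus GD12, was -0.62 (SE 0.24), close in size to that of Rrm2 but with a wider spread, and it did not pass (adjusted p = 0.212). With the replicate block the SE was 0.15 for Rrm1 and 0.13 for Rrm2, and Rrm1 still did not pass (adjusted p = 0.0609). Its value on GD12 array 3 was the highest of all, as it was for Rrm2. Tk1, the thymidine kinase of the salvage pathway, had 571, 532 and 636 on the GD12 arrays, 624, 597 and 610.3 on the GD13 arrays and 529.6, 508 and 656 on the GD14 arrays. Its days overlapped fully, and the log2 difference was -0.04 with a 95% confidence interval of -0.40 to 0.31. This interval leaves out the estimate for Rrm2 but meets the interval of Rrm2 itself, -1.12 to -0.39. The difference between these genes was not tested. Dut, the dUTPase that keeps uracil out of DNA, was dim, between 6.8 and 30, and its interval of -1.17 to 1.11 leaves its direction unresolved.

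**Figure D2:**
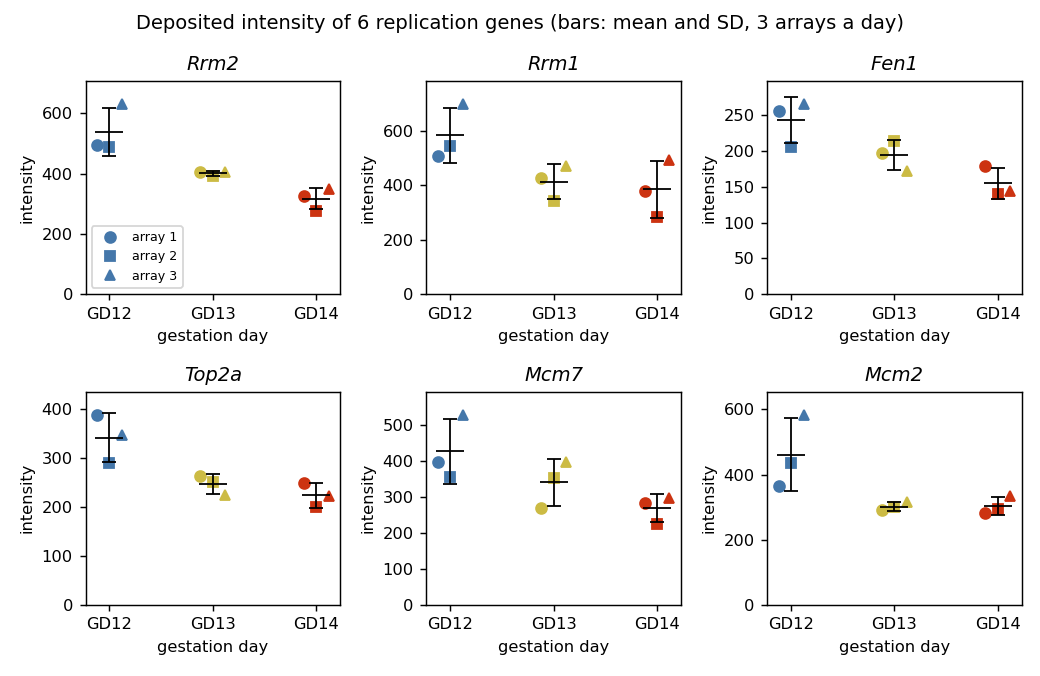
Deposited intensity (linear, from 0) of 6 replication genes by gestation day; symbols give the array number, and horizontal marks with bars are the mean and SD of 3 arrays a day. For Rrm2 the 3 days do not overlap, with GD14 at 277 to 349 and GD12 at 488 to 632; for Mcm2 the GD13 and GD14 values lie together below GD12.

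Licensing genes were the largest group, with 11 members, 10 of them tested and none called. All 10 tested members had lower values on GD14 than on GD12, with a median log2 difference of -0.35 over the 11, and 5 of them had an unadjusted p under 0.05 (Mcm7, Mcm2, Cdc6, Mcm3 and Gmnn). Over all 32 tested members this count was 9 lower and 0 higher, or 28.1% lower, where 7.26% of all tested probe sets were lower and 10.2% higher at the same unadjusted limit. The other 4 were Rrm2, Rrm1, Fen1 and Top2a.

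Mcm7, a subunit of the helicase ring, had 398, 356 and 529 on the GD12 arrays, 270.3, 353 and 399 on the GD13 arrays and 284, 225 and 297 on the GD14 arrays. The GD14 values all lay below the GD12 values, and the GD13 values overlapped both. Its log2 difference, GD14 minus GD12, was -0.65 (SE 0.22, adjusted p = 0.155, and 0.0723 with the replicate block). Mcm2, another ring subunit, had 364, 436 and 584 on the GD12 arrays, 290.2, 299 and 316 on the GD13 arrays and 283, 294 and 333 on the GD14 arrays. Here the whole estimated difference lay between GD12 and GD13, where the log2 difference was -0.58 and did not pass (adjusted p = 0.279). The step from GD13 to GD14 was 0.01, and the steps were not separated in limma (unadjusted p = 0.109). The GD12 values of Mcm2 were spread by an SD of 112, and the GD14 to GD12 difference did not pass (adjusted p = 0.151, and 0.0677 with the replicate block).

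Mcm3, Mcm4 and Mcm5, also ring subunits, had closely similar log2 differences of -0.34, -0.35 and -0.40. Mcm3 averaged 607 ± 81.8 on GD14 and 767 ± 25.7 on GD12, without overlap (SD, n = 3 each). Mcm5 was steady on GD12 at 648 ± 5.10 but ranged from 371 to 661 on GD14, where array 2 lay above every GD12 array. Mcm4 averaged 488 ± 93.9 on GD14 and 618 ± 94.7 on GD12, and its values overlapped. Mcm6, the sixth ring subunit, had a probe set under the filter, with 5.5, 9 and 0.6 on the GD12 arrays, 14.1, 17.1 and 9.5 on the GD13 arrays and 12, 17 and 11 on the GD14 arrays. These values ran the other way from the rest of the ring, with every GD12 value below every later value, but all lay near or under the filter intensity of 10.4 and no test or fold is given.

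Cdc6, which helps load the ring at origins, did not pass either. Its values ran from 288 to 304 on GD12, 223 to 247 on GD13 and 199.9 to 253 on GD14, so that both later days lay wholly below GD12. The log2 difference, GD14 minus GD12, was -0.43 (SE 0.15, adjusted p = 0.166). Gmnn, geminin, which blocks a second round of licensing, averaged 109 ± 20.5 on GD14, against 153 ± 36.5 on GD13 and 158 ± 28.1 on GD12 (SD, n = 3 each). Most of its estimated log2 difference of -0.52 lay in the second daily step, -0.46, which did not pass (adjusted p = 0.758). The origin recognition subunits Orc1 (-0.21) and Orc2 (-0.20) and the helicase partner Cdc45 (-0.17) differed by less than their standard errors and overlapped between days. With the replicate block the standard error of Orc1 was 0.16, smaller than its difference, and it did not pass (limma adjusted p = 0.492).

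Promoters of several licensing genes hold letters that match the E2F recognition sequence, and they are shown because E2F factors are the textbook regulators of this group. RefSeq promoter sequences (GRCm38.p6, 250 bases before to 50 after each start) were found for 30 of the 35 members, and not for Mcm4, Gmnn, Prim2, Ccne2 and Pole. They were searched on both strands for the 4 spellings TTTCCCGC, TTTCGCGC, TTTGCCGC and TTTGGCGC, whose matches may overlap. At least 1 match was found in 10 of the 30 members (33.3%), against 4.32% of 6577 genes on the array with a promoter in the same table. By role, 6 of 9 licensing genes had one (Orc1, Cdc6, Mcm3, Mcm5, Mcm6 and Mcm7), as did Pola1, Pold1, Lig1 and Msh6, and 0 of 5 nucleotide supply genes. Of 31 mitosis genes 2 had one. Below, capitals mark the matches, and each stretch ends upstream of the start on its own strand: Cdc6 at chr11:98907988-98908045 (plus strand), Mcm5 at chr8:75109331-75109392 (plus strand), Mcm6 at chr1:128359720-128359840 (minus strand), Mcm7 at chr5:138172016-138172073 (minus strand) and Pola1 at chrX:93632261-93632318 (minus strand).
Cdc6: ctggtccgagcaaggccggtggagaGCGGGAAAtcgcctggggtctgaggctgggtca
Mcm5: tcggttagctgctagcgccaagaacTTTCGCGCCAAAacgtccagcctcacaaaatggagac
Mcm6: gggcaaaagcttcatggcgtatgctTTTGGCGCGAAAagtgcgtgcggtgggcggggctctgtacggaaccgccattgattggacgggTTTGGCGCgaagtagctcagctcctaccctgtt
Mcm7: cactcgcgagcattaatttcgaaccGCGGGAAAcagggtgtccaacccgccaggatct
Pola1: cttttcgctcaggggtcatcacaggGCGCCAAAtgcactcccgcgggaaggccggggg
The starts used for Cdc6, Mcm7 and Pola1 lie inside the annotated span of each gene, and so do their printed stretches. In Mcm5 and Mcm6 a match on one strand overlaps one on the other. Rrm2, Rrm1, Fen1, Top2a and Mcm2 had no match to these letters in their windows on the strands searched. They are 5 of the 6 tested members with the largest differences between GD14 and GD12, in a list where most members had no match (10 of 30 had one). A link between matches and differences was not tested. Mcm7, the other of the 6, had 2 matches, TTTCCCGC before the start and TTTCGCGC after it. The match after the start lies outside the stretch printed above. Mcm6, not tested, had 3. A match of letters is a description of the sequence and not a bound site.

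The CCAAT box, the binding sequence of the factor NF-Y and common in cell cycle promoters, was searched in the same windows as the letters CCAAT on both strands. It was found in 19 of 30 members (63.3%) and in 42.5% of the genes on the array. Rrm2 is shown as the member that fell, at chr12:24708179-24708233 (plus strand), and Top2a as the member with 6 matches, at chr11:99024218-99024439 (minus strand). Capitals mark CCAAT or its reverse complement.
Rrm2: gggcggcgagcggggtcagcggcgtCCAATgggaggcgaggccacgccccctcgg
Top2a: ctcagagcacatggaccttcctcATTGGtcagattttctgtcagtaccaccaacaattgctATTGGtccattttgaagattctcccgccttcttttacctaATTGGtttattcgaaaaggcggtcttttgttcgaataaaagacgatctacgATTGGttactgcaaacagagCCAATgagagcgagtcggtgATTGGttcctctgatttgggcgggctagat
A CCAAT match was found in 27 of 31 mitosis genes (87.1%) and in 8 of 9 licensing genes.

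Genes acting at the fork and on the lagging strand differed in size. Fen1, the nuclease that trims the flap at the end of each Okazaki fragment, had 256, 206 and 266 on the GD12 arrays, 197, 214 and 173 on the GD13 arrays and 179.7, 141 and 144 on the GD14 arrays. The GD14 and GD12 values did not overlap, and the mean was 155 ± 21.6 on GD14 and 243 ± 32.2 on GD12 (SD, n = 3 each). Its log2 difference of -0.64 (SE 0.17) missed the threshold (adjusted p = 0.0825). Top2a, the topoisomerase that untangles replicated DNA and peaks after S phase, had 388, 289 and 346 on the GD12 arrays, 264, 250.4 and 223 on the GD13 arrays and 249, 199 and 222 on the GD14 arrays. Both later days lay wholly below GD12, and the log2 difference was -0.60 (SE 0.17, adjusted p = 0.0916, and 0.0482 with the replicate block). Rpa2, a subunit of the single-strand binding protein, had 43.6, 56.4 and 59 on the GD12 arrays, 55, 53.7 and 60.4 on the GD13 arrays and 19, 41 and 51.5 on the GD14 arrays. GD14 array 1 was far below the rest, and the log2 difference was -0.57 with it and -0.18 without it.

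The clamp, clamp loader and ligase genes had smaller differences. Pcna, the sliding clamp, ranged from 757 to 1342 on GD14 and from 1096 to 1212 on GD12, with a log2 difference of -0.13 and an interval of -0.66 to 0.41. The lowest of the 9 Pcna values was GD14 array 3. The clamp loader subunit Rfc1 had a difference of -0.06 (-0.49 to 0.37), and Lig1, which seals the fragments, 0.07 (-0.29 to 0.43). The intervals of Pcna, Rfc1 and Lig1 leave out the estimate for Rrm2, -0.75. The interval of Rrm2 itself, -1.12 to -0.39, overlaps those of Pcna and Rfc1 but not that of Lig1. Differences between genes were not tested. Chaf1a, the large subunit of the factor that sets histones on new DNA, averaged 94.9 ± 16.2 on GD14, 107 ± 2.64 on GD13 and 114 ± 3.15 on GD12 (SD, n = 3 each). Its GD14 and GD12 values did not overlap, but the log2 difference was -0.27 and did not pass (adjusted p = 0.434).

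Polymerase and primase genes were divided, 3 lower and 3 higher on GD14, with a median of -0.10 and none called. Pola1, the catalytic subunit of polymerase alpha, had 109.6, 135 and 128 on the GD12 arrays, 93.5, 89.1 and 119.8 on the GD13 arrays and 94.5, 94.9 and 98.5 on the GD14 arrays. The GD14 values were the most alike of the 3 days and lay below all GD12 values, with a log2 difference of -0.36 (adjusted p = 0.300). Its accessory subunit Pola2 averaged 236 ± 2.60 on GD14 and 236 ± 63.7 on GD12 (SD, n = 3 each), a difference of 0.04. The primase subunits pointed in opposite directions without passing. Prim1, the catalytic subunit, had 62.1, 63.8 and 91.6 on the GD12 arrays, 80.7, 45.8 and 84.6 on the GD13 arrays and 65.4, 42.6 and 54.1 on the GD14 arrays, and Prim2, the regulatory subunit, had 64.3, 80.7 and 62.7 on the GD12 arrays, 55.1, 71.7 and 98.6 on the GD13 arrays and 121, 60.4 and 86 on the GD14 arrays. Their log2 differences were -0.40 (interval -1.02 to 0.22) and 0.31 (-0.34 to 0.95), both with overlapping days. For polymerase delta, the catalytic subunit Pold1 differed by -0.25 and the accessory subunit Pold2 by 0.04, neither past the threshold.

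The 3 regulators of S-phase entry had differences above 0 between GD14 and GD12, none of them past the threshold. E2f1, an activating E2F factor, had 62.7, 57.7 and 70.2 on the GD12 arrays, 80.2, 105 and 71.8 on the GD13 arrays and 74.7, 82.4 and 60.2 on the GD14 arrays. Every GD13 value lay above every GD12 value, a log2 difference of 0.40 that did not pass (adjusted p = 0.495). On GD14 the values overlapped both days, and the GD14 to GD12 difference was 0.17 (interval -0.26 to 0.61). Ccne1, cyclin E1, which drives entry into S phase with Cdk2, had 167, 151 and 242 on the GD12 arrays, 226, 198 and 217 on the GD13 arrays and 185, 210.2 and 193 on the GD14 arrays. Its days overlapped, with a difference of 0.10 (-0.34 to 0.53). Ccne2, the second cyclin E gene, was dim, with 14.2, 7.2 and 7.6 on the GD12 arrays, 8.6, 22.7 and 11.7 on the GD13 arrays and 7.3, 13.3 and 9.4 on the GD14 arrays, and most of its values lay near the filter intensity.

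The 2 repair genes did not pass in any comparison. Ung, which removes uracil from DNA, had 192, 249.9 and 209 on the GD12 arrays, 237, 258 and 241 on the GD13 arrays and 156, 256 and 201 on the GD14 arrays. Msh6, a mismatch recognition protein, had 24.2, 45.2 and 34.5 on the GD12 arrays, 30.6, 50.7 and 37.5 on the GD13 arrays and 23.2, 34.1 and 28.7 on the GD14 arrays. Both overlapped between days and were highest on average on GD13. Between GD14 and GD12 they differed by -0.10 and -0.22 on the log2 scale. Without the replicate block these were less than their standard errors of 0.20 and 0.26. With the block the standard errors were 0.14 and 0.12, so Msh6 differed by more than its standard error. Neither gene passed with the block (limma adjusted p = 0.718 and 0.328). In each day array 2 was the highest for both genes on these probe sets. On a second Ung probe set array 3 was the highest on every day (269, 240 and 236).

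**Figure D3:**
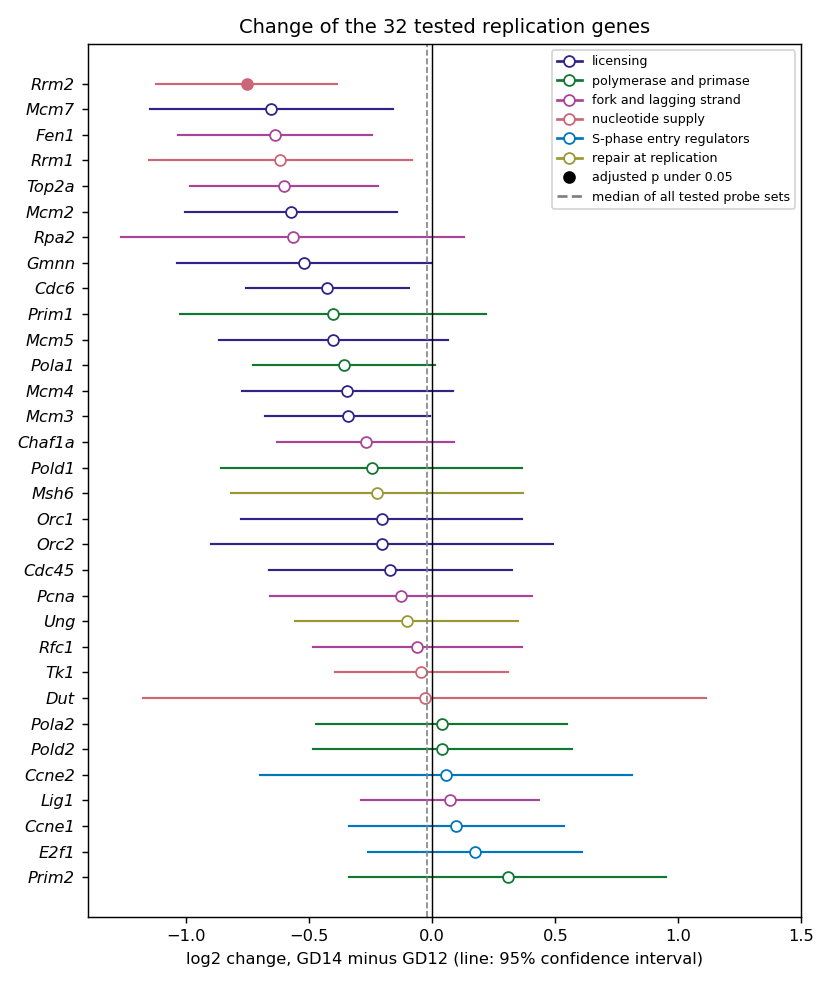
Log2 difference, GD14 minus GD12, of the 32 tested replication genes (points) with 95% confidence intervals (lines), coloured by role; the filled point passed at an adjusted p under 0.05. Rrm2 is the filled point at -0.75, and the dashed line marks the median of all 9316 tested probe sets at -0.02.

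Dimmer probe sets of the same genes give a second reading for 11 members. Of these 11 further probe sets, 7 passed the filter and 0 were called between GD14 and GD12 (0 also at an unadjusted p under 0.05). Mcm3 had a second probe set with a log2 difference of -0.03, against -0.34 for the one used, and its 9 values lay between 219 and 288, so the lower level of Mcm3 rests on 1 probe set. The second Ung probe set had -0.04 and that of E2f1 0.10, each near the first. For E2f1 the GD13 minus GD12 difference was 0.12 on the second probe set, with overlapping values, against 0.40 on the one used. The second probe sets of Rfc1 and Mcm5 were dim and differed more than the first ones between GD14 and GD12, at -0.90 (SE 0.88) against -0.06 for Rfc1 and -0.63 (SE 0.37) against -0.40 for Mcm5. Mcm2, Mcm7, Fen1, Top2a, Cdc6 and Rrm2 each had 1 probe set only, and for Rrm1 the second was under the filter.

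The comparison of single days called no member. Between GD13 and GD12, 0 of 32 members passed in limma, where 0.0751% of tested probe sets fell and 0.569% rose. At an unadjusted p under 0.05, 3 were lower (Mcm2, Rrm2 and Top2a) and 0 higher, or 9.38% lower beside 4.54% of all tested probe sets (higher, 6.45%). The GD13 values lay wholly below the GD12 values in 8 members (25%, beside 8.39%) and wholly above in 1, E2f1 (3.12%, beside 10.1%). The median log2 difference was -0.06 over the members and 0.03 over all tested probe sets. Between GD14 and GD13, 0 members passed, where 0.0107% of tested probe sets fell and 0.0322% rose, and 0 had an unadjusted p under 0.05 (all tested probe sets, 2.73% lower and 4.45% higher). The GD14 values lay wholly below the GD13 values in 2, Rpa2 and Rrm2 (6.25%, beside 5.88%), and wholly above in 0 (beside 7.13%). The median was -0.13 over the members and -0.03 over all tested probe sets. These comparisons share arrays, so their values are not independent.

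Members followed different courses over the days, none of them separated by a test. Day means of intensity were in descending order over GD12, GD13 and GD14 in 14 of 32 tested members (43.8%, beside 23.1% of all tested probe sets), among them Rrm2, Fen1, Top2a and Mcm7. The lowest mean was that of GD14 in 22 members (68.8%, beside 37.9%). Pcna, Tk1, Ung, Msh6, Cdc45, Orc2, Rpa2 and Pola2 had the highest mean on GD13 and the lowest on GD14, although the log2 difference of Pola2 between GD14 and GD12 was above 0. Prim2 was the single tested member with means in ascending order (3.12%, beside 22.3%). The test of the second daily step minus the first called 0 members in limma, and 0 had an unadjusted p under 0.05, where 4.86% of all tested probe sets did. The F-test over the 3 days also called 0 members, beside 2.59% of all tested probe sets, and 6 had an unadjusted p under 0.05 (18.8%, beside 14.2%).

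**Figure D4:**
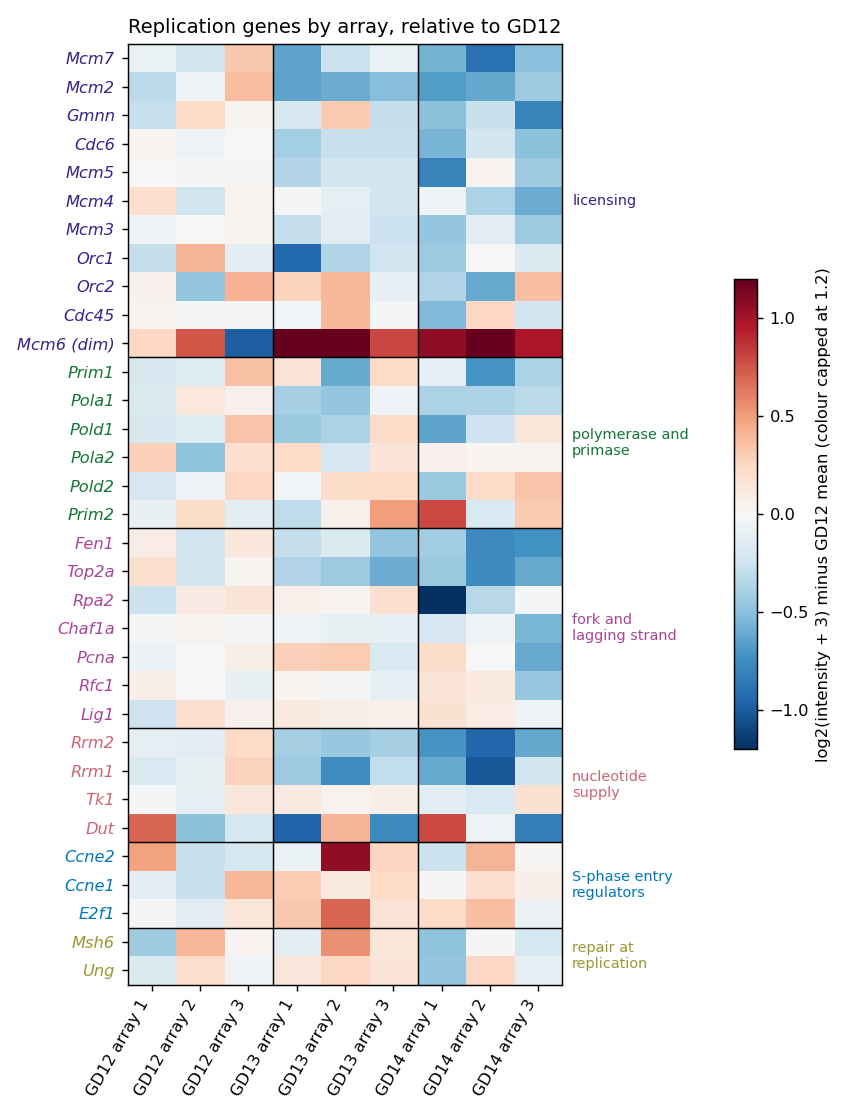
Each of the 33 members (rows, by role) on each array (columns, by gestation day), as log2(intensity + 3) minus the member's GD12 mean; red is above and blue below that mean. Blue fills the GD14 columns of Mcm7, Mcm2, Fen1, Top2a, Rrm2 and Rrm1, while E2f1, Ccne1 and Prim2 have no such run; Mcm6, marked dim, lay under the filter.

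Arrays that shared a number deviated together, so pairs of the same number were also compared. GD14 lay below GD12 in all 3 pairs for 17 of 32 tested members (53.1%, beside 22.2% of all tested probe sets) and above in all 3 pairs for 0 (beside 20.6%). GD13 lay below GD12 in all 3 pairs for 13 members (40.6%, beside 19.3%), and GD14 below GD13 for 13 (40.6%, beside 20.7%). Pold1 shows what the pairing adds. Its values were 219, 225 and 319 on the GD12 arrays, 184, 193 and 295 on the GD13 arrays and 160.2, 210.3 and 278 on the GD14 arrays, with array 3 the highest and array 1 the lowest on every day, so the days overlapped although each numbered pair was lower on GD14. With the block, the unadjusted p of Pold1 was 0.0986, against 0.386 without it, and it did not pass. Array 3 was the highest of its day on every day for 6 members (Mcm2, Mcm7, Pold1, Pold2, Rpa2 and Rrm1; 18.8%, beside 11.8%). Array 1 was the lowest on every day for 7 (21.9%, beside 8.65%) and the highest for 4 (12.5%, beside 4.55%), and array 2 was the lowest for 3 and the highest for 3 (9.38% each, beside 6.2% and 11.3%).

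Signal of the actin control probes toward the 3′ end, divided by that toward the 5′ end, reflects how intact the labelled RNA was. From GD12 to GD14 this ratio was 1.54, 2.09 and 2.44 on the arrays numbered 1 and 1.76, 2.23 and 2.29 on those numbered 2. On the arrays numbered 3 it did not rise (1.42, 1.25 and 1.37). It was 1.25 to 1.42 on the 3 arrays numbered 3 and 1.54 to 2.44 on the others, and averaged 2.04 ± 0.582 on GD14 and 1.58 ± 0.175 on GD12 (SD, n = 3 each). With this ratio as a covariate the members' median difference was -0.28 and Rrm2 did not pass (adjusted p = 0.0565). The same ratio for the Gapdh control probes averaged 1.13 ± 0.246 on GD14, 1.01 ± 0.185 on GD13 and 1.01 ± 0.154 on GD12 (SD, n = 3 each). The part of RNA quality in these values was not tested further. Without the 3 arrays numbered 3, an alternative chosen after seeing the data, the median was -0.22, the log2 difference of Rrm2 was -0.71 and 0 members passed.

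Other replication and S-phase genes were followed as a list of their own. Of 47 with a probe set, 44 were tested, 2 fell, 0 rose and 42 did not pass between GD14 and GD12, and the median log2 difference was -0.21. Of all tested probe sets 1.06% fell and 3.24% rose. Dck, the deoxycytidine kinase of nucleotide salvage, had 612, 595 and 673 on GD14, against 1075, 1051 and 963 on GD12. The days did not overlap, with a log2 difference of -0.71 (SE 0.13, adjusted p = 0.0201). A far dimmer Dck probe set, with means of 20.1 on GD12 and 13.2 on GD14, had a difference of -0.49 and did not pass. Whether both probe sets measure Dck alone was not tested. Uhrf1, which brings the maintenance methylase to replicated DNA, had 298, 265 and 339 on GD14, against 464, 499 and 437 on GD12, again with no overlap (-0.63, SE 0.15, adjusted p = 0.0493, and 0.0502 with the replicate block). The Dck call ended without GD12 array 1 or 2 or GD14 array 1 or 2 (adjusted p = 0.0825, 0.0663, 0.0822 and 0.0757), and that of Uhrf1 without any one array except GD14 array 3, with adjusted p of 0.0709 to 0.151. The Dck call also ended with the mean of its probe sets (0.160) and with only the 2 days compared in the fit (0.0797).

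Genes of mitosis and of cell cycle arrest, set beside the members, lay on either side of them. Of 31 tested mitosis and G2/M genes 2 fell (Stmn1 and Kif2c), 0 rose and 29 did not pass, with a median of -0.45 between GD14 and GD12. Of all tested probe sets 1.06% fell and 3.24% rose. At an unadjusted p under 0.05, 17 of the 31 were lower, beside 9 of the 32 replication members and 7.26% of all tested probe sets. Stmn1, which destabilizes microtubules, had a log2 difference of -0.82 (adjusted p = 0.0138, and 0.0617, 0.0545 and 0.0573 without GD12 array 1 or GD14 array 1 or 2). Its adjusted p was 0.0619 without the arrays numbered 3 and 0.0561 with only the 2 days compared in the fit. The call of Kif2c, a mitotic kinesin (-0.66, adjusted p = 0.0437), ended without any one array, with adjusted p up to 0.153. The third list joined cell cycle inhibitors and genes named for growth arrest. Among its 17 tested genes 3 rose, 0 fell and 14 did not pass, with a median of 0.49 over 18. Of all tested probe sets 3.24% rose and 1.06% fell. Cdkn1a, the inhibitor p21 that binds both cyclin-dependent kinases and Pcna, had 227, 224 and 183 on GD14, against 78.1, 66.4 and 45 on GD12 (log2 1.72, adjusted p = 0.00273). The others that rose were Gas6, listed for its growth arrest name (1.27, adjusted p = 0.00294), and Gadd45b (1.29, adjusted p = 0.0476). The Gadd45b call ended without any one array except GD13 array 3, with adjusted p of 0.0508 to 0.163. Dimmer probe sets on the same arrays rose for Gadd45b (1.17, adjusted p = 0.0226) and Cdkn1a (1.90, adjusted p = 0.0233). A second probe set of Stmn1 was under the filter. Differences between these lists were not tested.

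**Figure D5:**
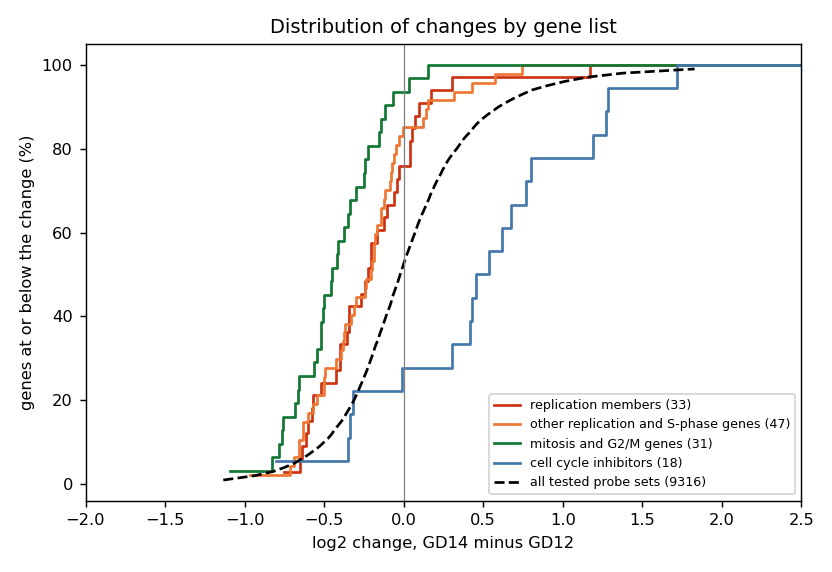
Share of genes (percent, vertical axis) at or below each log2 difference, GD14 minus GD12 (horizontal axis), for the 33 members, 3 lists of related genes and all 9316 tested probe sets. The members and the other replication genes run close together with medians of -0.22 and -0.21, the mitosis genes lie to their left (-0.45) and the inhibitor and growth arrest genes to the right (0.49).

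Markers of the cell types in the tissue also changed in level, and the part of cell makeup in the replication gene values was not tested. Facial mesenchyme markers had probe sets for 7 of 10 genes, all above the filter, with a summed intensity of 4471 to 4682 on GD12, 3713 to 3855 on GD13 and 3463 to 3841 on GD14. Skeletal muscle markers (9 of 9) summed to 1009 to 1250 on GD12, 1352 to 1641 on GD13 and 2183 to 3401 on GD14. Bone and cartilage markers (6 of 9, Col2a1 under the filter) summed to 390 to 459 on GD12, 1435 to 1858 on GD13 and 2201 to 3549 on GD14. Most of the bone and cartilage sum on GD14 was Ibsp, at 2268 ± 619 on GD14 and 40.4 ± 12.4 on GD12 (SD, n = 3 each), while Col9a1 was 141 ± 35.4 on GD14 and 238 ± 12.0 on GD12 and did not pass. Epithelial markers (9 of 9, with Krt5, Krt14 and Krt15 under the filter) summed to 579.6 to 650.4 on GD12, 1024 to 1052 on GD13 and 1533 to 1667 on GD14, leukocyte markers (8 of 9, Ptprc under the filter) to 337 to 352 on GD12, 399 to 436 on GD13 and 705 to 802 on GD14, and endothelial markers (7 of 7) to 744 to 781 on GD12, 648 to 708 on GD13 and 750 to 869.9 on GD14. Neuronal markers (10 of 10, Syt1 and Elavl3 under the filter) summed to 1781 to 3279.8 on GD12, 1404 to 1989.8 on GD13 and 1379 to 1809.8 on GD14, and red cell markers (8 of 10, Epb42 under the filter) to 22517 to 28707 on GD12, 18830.1 to 20975 on GD13 and 14686 to 18531 on GD14. Between GD14 and GD12 the log2 difference was below 0 in all 10 neuronal markers and above 0 in all 8 leukocyte markers. Each of the other lists held differences of both signs. In the epithelial list Krt6a was 862 ± 83.2 on GD14 and 99.2 ± 15.9 on GD12 and Krt8 299 ± 42.8 on GD14 and 127 ± 15.6 on GD12, while Cdh1 was 171 ± 36.8 on GD14 and 170.4 ± 7.34 on GD12 (SD, n = 3 each). In the red cell list the embryonic globins Hba-x, Hbb-y and Hbb-bh1 fell, Hbb-b2 rose, at 4382 ± 216 on GD14 and 2293 ± 165 on GD12, and Hba-a1 was 8043 ± 1451 on GD14 and 7538 ± 1069.7 on GD12. Between GD14 and GD12, limma called 4 muscle, 4 leukocyte, 2 epithelial, 2 bone and cartilage and 1 red cell marker higher, and 3 red cell, 1 neuronal and 1 mesenchyme marker (Msx1) lower. Of the endothelial markers 0 passed, and 0 had an unadjusted p under 0.05. Over all tested probe sets 3.24% were called higher and 1.06% lower.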

How the data were processed

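The deposited table holds 1 intensity per probe set and array (12488 probe sets, 66 of them controls), scaled by the authors, as judged from the values, so that the mean without the lowest and highest 2% is 150.1 on every array. The software that made it is not given in the sources used here. Array medians were 47.15 to 56.95, and the number of arrays limits the precision. A value of 3, the 10th percentile of intensity, was added before taking log2. The dimmest probe sets, up to the 25th percentile of mean log2 intensity, were left out, leaving 9316. All 9 arrays entered limma 3.58.1 (R 4.3.3) with 3 day means and moderated statistics, and p-values were adjusted over all 9316 by the Benjamini-Hochberg method (threshold 0.05). Fold changes come from log2 values with the added 3. Gene names come from the array annotation, and 10817 of 10833 single-symbol probe sets matched the GRCm38.p6 gene table. The fit was tested on simulated data.

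The members and lists were chosen with earlier results of these data known. Values on every array are given for members that passed any test and for the 3 members of each role with the largest difference between GD14 and GD12; Pold1 was added after its values were seen. For the other lists, up to 6 passing genes are named. Residuals of arrays with the same number correlated between days at 0.19 to 0.42 (other pairs, -0.29 to -0.02), so the numbers were taken as pairs. Residuals of a day cancel in sum, so positive values for same-number pairs push the other pairs lower, and these are not separate evidence. The blocked value stands beside results it changes and beside several others. Alternatives covered scaling, added value, filter, block, variance model, actin ratio, probe set choice and omitted arrays. Plots used Python 3.11.15 and matplotlib 3.10.9.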

Additional observations from a re-analysis of the deposited data

How the results depend on the processing

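The members' median log2 difference kept its sign under all 22 alternatives in each comparison: -0.31 to -0.18 between GD14 and GD12, -0.12 to -0.02 between GD13 and GD12 and -0.19 to -0.11 between GD14 and GD13. It moved by less than the pooled SD of the arrays of the 2 days compared (0.113, 0.0516 and 0.108 in the same order), except that median scaling gave -0.12 between GD13 and GD12, against -0.06 as reported. The scaling alternatives moved the median of all tested probe sets by less than 0.1. The number of members called between GD14 and GD12, 1 as reported, was 0 with median scaling, 0 with no filter, 0 with only the groups compared, 0 with the actin ratio as a covariate, 0 without the arrays numbered 3, 2 with the replicate block, 3 with the filter at the median and 3 with trend and robust variances, and 0 to 1 with single arrays omitted. Where 3 were called they were Rrm2, Fen1 (adjusted p = 0.0401 and 0.0427) and Top2a (0.0449 and 0.0426). Calls over the whole array in those 2 fits lay within 225 to 621, the range over the alternatives other than single omitted arrays. The filter at the median also tested fewer probe sets. The log2 difference of Rrm2 stayed between -0.82 and -0.63, and its call held in 9 of 22 alternatives, with adjusted p from 0.00885 to 0.118. The F-test called 1 member with the filter at the median and 1 with trend and robust variances, against 0 as reported. Single daily steps and their difference called 0 members under every alternative run. The replicate block changed the calls of Top2a and Uhrf1 and no other named call. The whole array gave 401 calls between GD14 and GD12, 621 with the replicate block and 617 with array weights, 225 with only the groups compared and 176 to 391 with single arrays omitted. Between GD13 and GD12 it gave 60, and 10 to 201 over the alternatives; between GD14 and GD13 it gave 4, and 0 to 26. With 3 arrays a day, changes of the size seen in most members were within the error, and the cause of each lost call was not tested.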
